A study of Mus musculus with 10 samples.

Results

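The genes described here are 10 that mark dendritic cells in RNA sequencing of mouse mammary tumors: Clec9a, Xcr1, Flt3, Batf3, Zbtb46, Cd209a, Itgae, Cadm1, Clec10a and Ccr7. They were taken by name from the deposited expression tables, where all 10 were among the 23202 genes listed for sorted macrophages and 7 were among the 19720 genes listed for whole tumors. Flt3, Batf3 and Ccr7 were not listed in the whole-tumor table. The genes were chosen by what they mark and with their measured values in the sorted macrophages, cKO against control, already known, so their comparison between genotypes within the sort is given as a description, and tests of them are given only for whole tumors.

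All mice carried MMTV-PyMT, a transgene that drives the polyoma middle T oncogene from a mammary tumor virus promoter and gives mammary carcinoma, on a B6 background. All of them, controls included, carried the floxed Cxcr4 alleles (Cxcr4 fl/fl), Cxcr4 being the receptor of the chemokine CXCL12. The mice labelled cKO also carried LysM-Cre, in which Cre is made from the promoter of the lysozyme gene Lyz2, active in macrophages, monocytes and neutrophils, and the controls were littermates with no Cre. Tumors were collected at 15 weeks, digested, and sorted on F4/80 and CD11b, a pair of surface proteins of macrophages that some dendritic cells also carry. Sorted macrophages came from 3 cKO mice (725, 746 and 867) and 3 controls (706, 720 and 775), and whole tumors from 2 cKO mice (725 and 746) and 2 of those controls (706 and 720), 1 mouse a library. Values are CPM, reads scaled to a library total of 1e+06, obtained from deposited log2(CPM + 1), and differences are cKO minus control on that log2 scale.

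The macrophage libraries held 14.4 to 25.2 M reads (M, 1e+06) and the tumor libraries 34.2 to 53.4 M. Cxcr4 itself, the targeted gene, was at 41.9, 165 and 24.1 CPM in the sorts of mice 725, 746 and 867 against 14.4, 135 and 54.3 CPM in those of controls 706, 720 and 775. In neither table were the cKO libraries all below the controls. In the tumors Cxcr4 was at 47.9 and 57.6 CPM in the cKO libraries and at 29.8 and 33.4 CPM in the controls. Every direction between genotypes below is therefore between libraries labelled cKO and control. The sorts held macrophage RNA (Adgre1, which encodes F4/80, at 237 to 555 CPM) and tumor epithelial RNA (Epcam at 339 to 616 CPM), and the T cell gene Cd3e was at 0 in 5 of the 6. Weakly expressed genes had their reads in few steps: the most frequent read number of a detected gene of this kind was 12 to 56 in the macrophage libraries and 40 to 71 in the tumor libraries. A gene listed at 0 allows up to 0.119 to 0.208 CPM (3 reads) in a macrophage library and 0.0562 to 0.0878 CPM in a tumor library, a limit that covers sampling of reads only. Of the genes that averaged 2 to 10 CPM over the other sorts, 4.22% to 19.5% had under 3 reads in the sort left out, most in control 706.

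Dendritic cells take up antigen in tissues and present it to T cells. Conventional dendritic cells of type 1 (cDC1) depend on the transcription factor BATF3, take up dead cells through CLEC9A, follow the chemokine XCL1 through XCR1 and present tumor antigens to CD8 T cells. Those of type 2 (cDC2) carry C-type lectins such as CD209a and CLEC10A, which tissue macrophages and monocyte-derived cells can carry too. Dendritic cells of either type grow under the receptor FLT3, express ZBTB46, and turn on the chemokine receptor CCR7 when they mature and leave for the lymph node.

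Promoters are shown for 4 genes: Clec9a and Xcr1, surface receptors of the same cell type whose groups differed in opposite directions in the sorts, those of Xcr1 with overlap, and Zbtb46 and Cd209a, which peaked in the same library. RefSeq promoter windows of 300 bases were matched by symbol for 6 of the 10 genes, Clec9a, Xcr1, Flt3, Batf3, Zbtb46 and Cd209a; Itgae, Cadm1, Clec10a and Ccr7 were not in the table. On GRCm38.p6 the window of Clec9a is chr6:129408612-129408911 on the plus strand. Those of Xcr1, chr9:123861980-123862279, Zbtb46, chr2:181424339-181424638, and Cd209a, chr8:3748935-3749234, are on the minus strand. Each reads 5′ to 3′ along its gene across the start of a RefSeq transcript, that of Zbtb46 being an internal start within the gene as GENCODE gives it (181387762 to 181459426), and capitals mark matches to the motifs searched.
Clec9a: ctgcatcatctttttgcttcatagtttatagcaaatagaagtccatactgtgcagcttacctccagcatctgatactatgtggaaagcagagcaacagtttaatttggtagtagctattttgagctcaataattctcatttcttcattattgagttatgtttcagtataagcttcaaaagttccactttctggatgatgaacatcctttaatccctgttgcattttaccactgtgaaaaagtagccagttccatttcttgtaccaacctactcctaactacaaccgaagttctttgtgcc
Xcr1: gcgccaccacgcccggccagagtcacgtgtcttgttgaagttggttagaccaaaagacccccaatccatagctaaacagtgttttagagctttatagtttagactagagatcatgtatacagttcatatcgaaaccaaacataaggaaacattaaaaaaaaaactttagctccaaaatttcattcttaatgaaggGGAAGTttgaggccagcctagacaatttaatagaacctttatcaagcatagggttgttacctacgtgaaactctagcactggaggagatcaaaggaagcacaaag
Zbtb46: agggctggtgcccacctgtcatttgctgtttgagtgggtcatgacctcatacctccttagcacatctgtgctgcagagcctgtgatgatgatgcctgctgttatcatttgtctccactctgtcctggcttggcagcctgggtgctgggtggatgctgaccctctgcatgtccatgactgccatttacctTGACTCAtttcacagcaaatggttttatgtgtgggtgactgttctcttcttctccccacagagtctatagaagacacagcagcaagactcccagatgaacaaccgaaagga
Cd209a: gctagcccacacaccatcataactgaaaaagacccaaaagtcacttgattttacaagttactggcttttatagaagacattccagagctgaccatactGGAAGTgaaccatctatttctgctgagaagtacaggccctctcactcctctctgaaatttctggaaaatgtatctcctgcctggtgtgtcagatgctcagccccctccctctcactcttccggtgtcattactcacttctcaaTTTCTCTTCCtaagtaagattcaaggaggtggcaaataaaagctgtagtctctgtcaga
On both strands, 4 motifs were searched. GGAAGT, the core bound by ETS factors such as PU.1, was in the windows of Xcr1, Flt3, Batf3 and Cd209a and in 23.8% of all 32851 promoters of the same length. TGANTCA, the site of AP-1 factors, the family of BATF3, was in that of Zbtb46, 61 bases before the start, and in 7.81% of all; since it reads the same on either strand, this is 1 site. The composite of an ETS and an IRF site, GGAA followed by GAAA with any 2 bases between, was in that of Cd209a on the opposite strand and in 2.72% of all. Along the gene this match begins 9 bases before the start and runs onto it. The interferon response core, a pair of GAAA with any 2 bases between, was in none of the 6 and in 3.44% of all, and the window of Clec9a held none of the 4 motifs. These matches describe letters in the windows and were not tested for binding.

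Clec9a, the receptor with which cDC1 recognise dead cells, was higher in every sort labelled cKO than in every control. It stood at 12.0, 7.40 and 6.80 CPM in mice 725, 746 and 867 and at 0, 0.979 and 1.61 CPM in controls 706, 720 and 775. These are 245, 148 and 171 reads in the cKO libraries and 0, 22 and 37 reads in the controls. The cKO values lie well above the most frequent read numbers of weak genes in those libraries (12, 49 and 49). Control 775 lies above its own too (13), and control 720 lies below its own (56). The means were 8.75 and 0.863 CPM (n = 3 each), and the difference was 2.46 (standard error 0.74). With any single library left out it stayed between 2.06 and 2.75. The gene was chosen with this gap known, so it carries no test here: across all 16304 genes that averaged 1 CPM or more, 3.77% had every cKO sort above every control and 3.45% had every one below. Clec9a (ENSMUSG00000046080, chromosome 6, 129408862 to 129424763) overlaps the end of Clec1b on the same strand, and 3.45% of its 75-base windows also occur in that gene, which had a mean of 0.303 CPM.

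Xcr1, the receptor of XCL1 and the other surface marker specific to cDC1, was not ordered like Clec9a. It was at 4.31, 3.87 and 0.913 CPM in controls 706, 720 and 775 and at 1.47, 1.20 and 0 CPM in mice 725, 746 and 867. Its highest value was in the control sort with no Clec9a read, and its only 0 was in a cKO sort with 171 Clec9a reads. Its reads were 62, 87 and 21 in the controls and 30, 24 and 0 in the cKO sorts. Those of mice 746 and 867 lay below the most frequent read number of weak genes there (49 in each). The groups overlapped, with a difference of -1.06 (standard error 0.82), which was -0.66 without mouse 867. With pseudocounts of 0.1 and 5 CPM it was -2.15 and -0.43. Over the 6 sorts Pearson's r of the log2 values of these markers was -0.68, a description over libraries that share their processing. An antisense RNA gene, Gm57030, overlaps Xcr1 and had a mean of 2.40 CPM in the sorts. Whether the counting used strand is not given in the sources used here, so reads of the pair may not be told apart.

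The other genes tied to cDC1 gave no common order either. Batf3, the factor that cDC1 need to develop, was at 1.13, 4.65 and 6.24 CPM in mice 725, 746 and 867 and at 2.50, 0 and 1.74 CPM in controls 706, 720 and 775. Mouse 725, highest for Clec9a, was thus the lowest cKO sort for Batf3, below controls 706 and 775, and the difference was 1.06 (standard error 0.82), 0.52 without control 720 and 1.59 without mouse 725. Itgae, which encodes the integrin CD103 of migratory cDC1 and of resident T cells, was found only in control 775 (0.826 CPM) and mouse 867 (0.556 CPM), and was at 0 in the other 4 sorts. With a mean of 0.230 CPM it was the 1 gene of the 10 under the filter of 1 CPM. Its gene contains Haspin on the opposite strand, at a mean of 3.50 CPM.

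Cadm1, a cell adhesion molecule that is high on cDC1 and also made by many epithelial and stromal cells, was far above the other 9. It was at 473, 322 and 158 CPM in mice 725, 746 and 867 and at 314, 299 and 167 CPM in controls 706, 720 and 775. The lowest values were in mouse 867 and control 775, 1 of each genotype, and the difference was 0.20 (standard error 0.33). Without mouse 867 it was 0.64 and without mouse 725 it was -0.15. The sums of fibroblast genes (6 genes) were highest in the same sorts, at 1165 CPM in mouse 867 and 422 CPM in control 775. They were 57.2 to 137 CPM in the other 4. Macrophage sums were lowest in those sorts, at 2024 CPM in mouse 867 and 1020 CPM in control 775, against 2221 to 2875 CPM in the other 4. Over the 6 libraries r of Cadm1 was -0.92 with the fibroblast sum and -0.85 with the endothelial sum. It was 0.63 with the macrophage sum, -0.02 with the epithelial sum and -0.47 with the T cell sum. The part of these cells in the Cadm1 values was not tested.

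**Figure D1:**
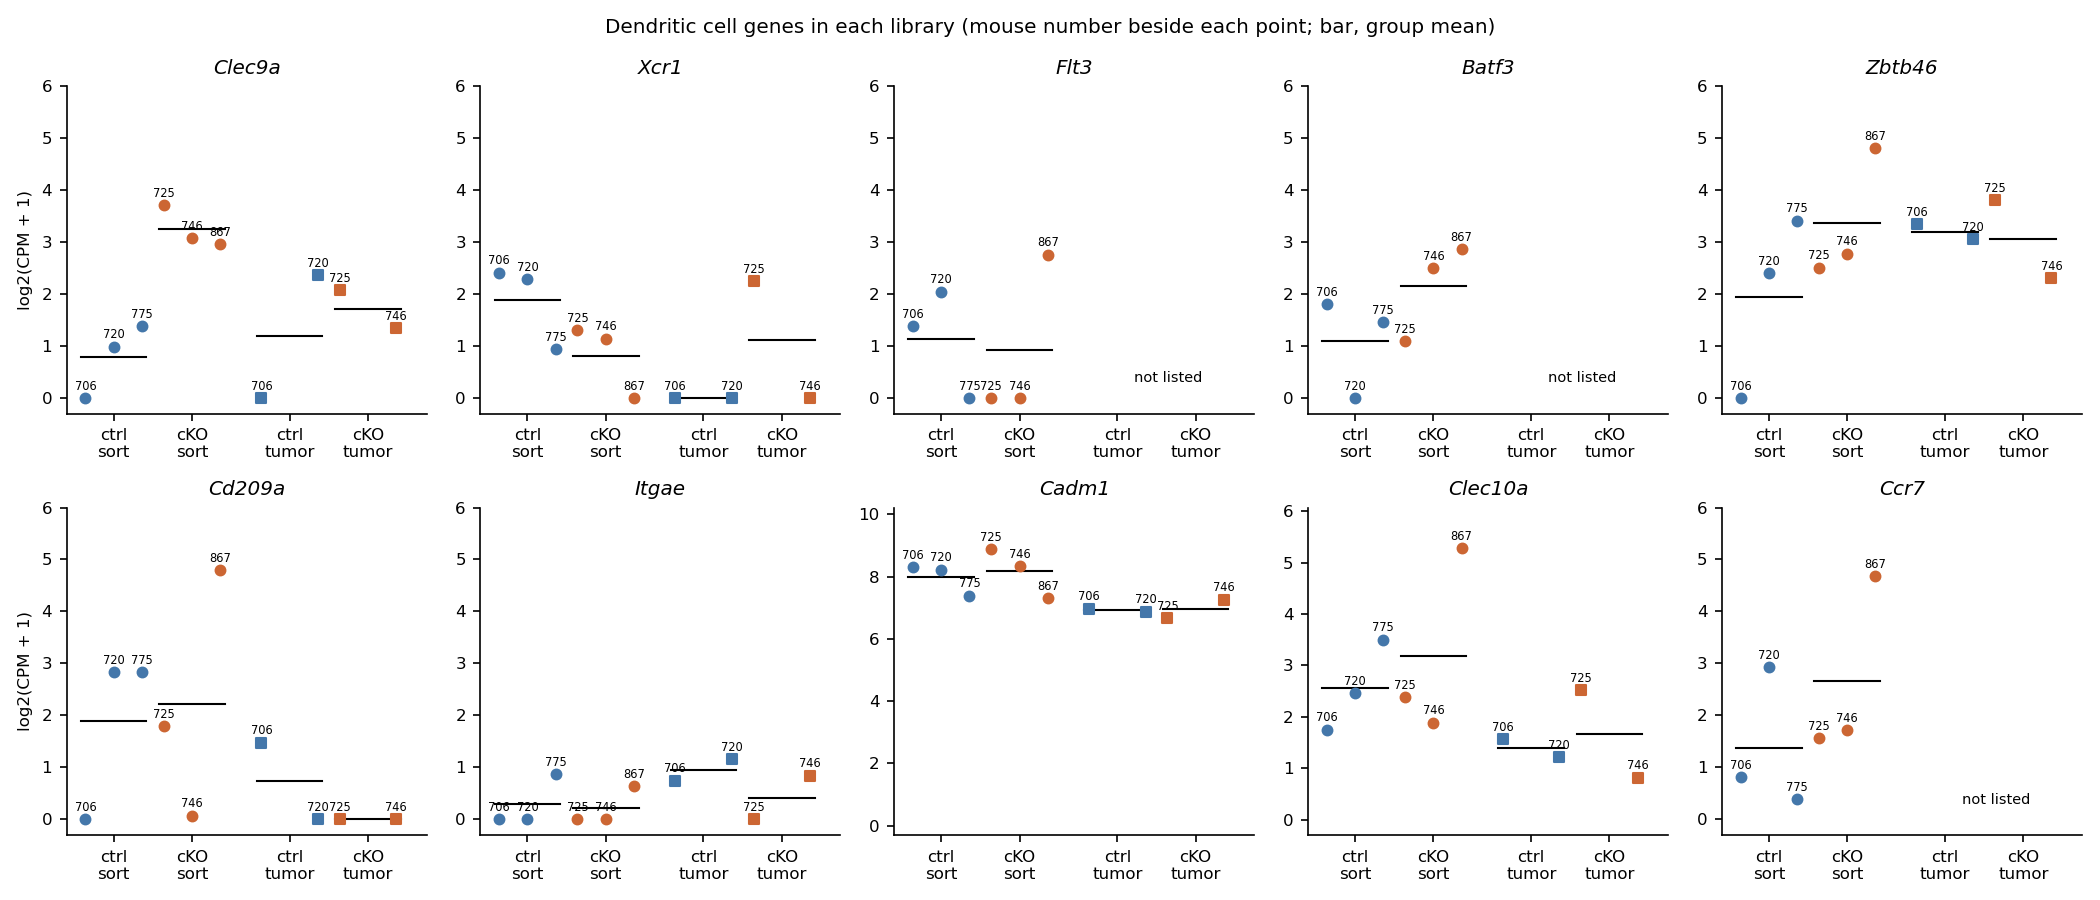
Expression of the 10 genes as log2(CPM + 1) (vertical axis) in each library, by genotype and by source (sorted macrophages, circles; whole tumors, squares); numbers name the mouse, bars are group means of the log2 values, ctrl means control, and the axis of Cadm1 reaches higher than the others. Clec9a separates the sorts by label, at 6.80 to 12.0 CPM against 0 to 1.61 CPM, and mouse 867 is the highest sort for 6 genes.

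Flt3, the growth factor receptor of dendritic cell precursors, was found in 3 of the 6 sorts. It was at 1.60 and 3.12 CPM in controls 706 and 720, at 5.76 CPM in mouse 867, and at 0 in control 775 and in mice 725 and 746. The cKO sorts thus held both its highest value and values at 0, and the 2 with the highest Clec9a had no Flt3 read. The difference was -0.22 (standard error 0.93), and its sign turned when control 720 (0.23), mouse 725 (0.24) or mouse 746 (0.24) was left out and at a pseudocount of 5 CPM.

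Zbtb46, a transcription factor of conventional dendritic cells that endothelial cells also express, was highest in mouse 867. It stood at 4.67, 5.85 and 27.0 CPM in mice 725, 746 and 867 and at 0, 4.27 and 9.61 CPM in controls 706, 720 and 775. The groups overlapped, since control 775 lay above mice 725 and 746, and the difference was 1.43 (standard error 0.82), 0.46 without control 706 and 2.16 without control 775. The summed endothelial genes (6 genes) followed a like order, at 24.0, 20.4 and 274 CPM in the same cKO mice and 16.0, 19.1 and 96.8 CPM in the controls, and r was 0.82 between Zbtb46 and that sum over the 6 sorts. How much of the Zbtb46 reads came from endothelial cells was not tested.

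The lectins of cDC2 peaked in mouse 867 as well. Cd209a, a relative of DC-SIGN, was at 2.46, 0.050 and 26.7 CPM in mice 725, 746 and 867 and at 0, 6.14 and 6.13 CPM in controls 706, 720 and 775; the value of mouse 746 is 1 read. Clec10a, a receptor for galactose-bearing glycans, was at 4.20, 2.7 and 37.9 CPM in the cKO mice and at 2.36, 4.50 and 10.3 CPM in the controls. Apart from mouse 867, the cKO sorts lay within the control range for both genes. The difference of Cd209a was 0.33 (standard error 1.0) and turned to -0.96 without mouse 867, and that of Clec10a was 0.61 (standard error 0.78) and turned to -0.44. Of the 75-base windows of Clec10a, 6.42% also occur in its neighbour Mgl2, a near copy, so the counts of this pair are uncertain.

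Ccr7, the receptor that guides mature dendritic cells and some T cells to lymph nodes, was at 1.97, 2.30 and 24.6 CPM in mice 725, 746 and 867. It was at 0.764, 6.59 and 0.304 CPM in controls 706, 720 and 775. Control 720 was thus above 2 of the 3 cKO sorts, and the difference of 1.28 (standard error 0.90) was 0.27 without mouse 867 and 2.05 without control 720. The T cell list, 7 of whose 10 genes were listed, summed to 12.9 to 19.8 CPM in the cKO sorts and 12.1 to 14.6 CPM in the controls, and r of Ccr7 with that sum was 0.97. Of its defining genes Cd3d and Cd8b1 were not listed, and Cd3e, Cd3g and Trac were at 0 in mouse 867. That list was led by Cd4 (mean 7.31 CPM), which was higher in the sort than in the tumor in all 4 mice compared, unlike Cd3e. The part of T cells in the Ccr7 values was not tested.

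The sort of mouse 867 therefore held the highest value of Flt3, Batf3, Zbtb46, Cd209a, Clec10a and Ccr7, 6 of the 10 genes, and was at 0 for Xcr1 alone. The same library was highest for 21.4% of all genes tested and for 22.4% of the 9712 genes at 1 to 20 CPM. Mouse 725 was highest for Clec9a and Cadm1, control 706 for Xcr1 and control 775 for Itgae. Control 706 was at 0 for Clec9a, Zbtb46, Cd209a and Itgae, the most of any sort, and was also the shallowest. Over the 6 sorts r was 0.91 between Cd209a and Clec10a, 0.80 between Zbtb46 and Cd209a, and 0.80 between Flt3 and Ccr7, while Xcr1 ran against Zbtb46 (r = -0.89) and Clec10a (r = -0.81). Itgae and Cadm1 ran against each other too (r = -0.90), Zbtb46 and Clec10a together (r = 0.83), and Cadm1 against Clec10a (r = -0.80).

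Markers of other cells moved with that library. Mouse 867 had the highest endothelial (274 CPM) and fibroblast (1165 CPM) sums and the highest monocyte sum, 1502 CPM over 7 genes, including the monocyte chemokine receptor Ccr2 at 979 CPM against 140 to 273 CPM in the other 5 sorts. Its macrophage sum (11 genes) was 2024 CPM, between control 775 at 1020 CPM and the other 4 at 2221 to 2875 CPM. The part of these cells in the dendritic cell values was not tested. In bulk libraries such as these, more cells of a type and more RNA per cell cannot be told apart.

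Levels were compared between genes per kilobase of exon. In the sorts Cadm1 led with 27.7 ± 11.2 CPM per kb (SD, n = 6), followed by Cd209a at 4.37 ± 6.37, Clec10a at 3.56 ± 4.76 and Ccr7 at 3.07 ± 4.71. Next came Batf3 at 1.70 ± 1.46, Clec9a at 1.46 ± 1.43 and Zbtb46 at 1.01 ± 1.12 CPM per kb, and last Xcr1 at 0.440 ± 0.388, Flt3 at 0.283 ± 0.377 and Itgae at 0.0503 ± 0.0801. Only the step from Cadm1 to Cd209a was larger than the spread between libraries, and each other neighbouring pair lay within it. In whole tumors the order of means per kb was Cadm1 (11.8), Zbtb46 (0.978), Clec10a (0.756), Clec9a (0.676), Cd209a (0.282), Xcr1 (0.210) and Itgae (0.147).

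**Figure D2:**
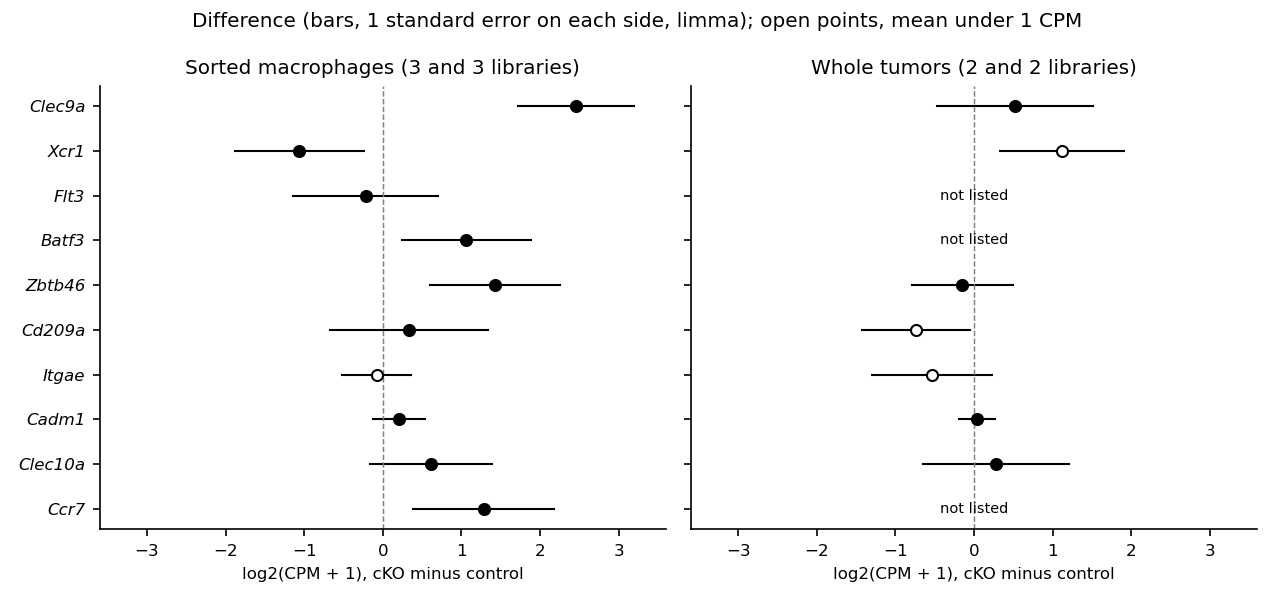
Difference between genotypes for each gene (horizontal axis, log2(CPM + 1), cKO minus control) in sorted macrophages (3 and 3 libraries) and whole tumors (2 and 2 libraries); bars extend 1 standard error from limma to each side, and open points mark genes with a mean under 1 CPM. Clec9a lies at 2.46 in the sorts and at 0.52 in the tumors, and Xcr1 lies on the opposite side of 0 in the sorts.

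Whole tumors showed no separation of genotypes for any of the 7 listed genes. Clec9a was at 3.22 and 1.53 CPM in mice 725 and 746 and at 0 and 4.16 CPM in controls 706 and 720. The cKO tumors thus lay between the controls, with a difference of 0.52 (standard error 0.99, 95% interval -1.57 to 2.62, limma adjusted p = 0.953). The interval is wide enough to include the difference of 2.46 seen in the sorts. Over all 14630 genes tested in tumors 0% passed the limma threshold of 0.05 (856 had an unadjusted p under 0.05), while 21.2% had both cKO tumors above both controls and 14.3% had both below, which none of the 7 genes had.

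Zbtb46 was at 12.9 and 3.93 CPM in the cKO tumors and 9.10 and 7.34 CPM in the controls, here with the controls inside the cKO range. The difference was -0.15 (95% interval -1.51 to 1.22, limma adjusted p = 0.979). Clec10a was at 4.72 and 0.763 CPM against 1.96 and 1.32 CPM, a difference of 0.28 (95% interval -1.69 to 2.24, limma adjusted p = 0.970). The closest estimate was that of Cadm1, at 100.3 and 152.7 CPM against 124 and 117 CPM, a difference of 0.04 (95% interval -0.45 to 0.53, limma adjusted p = 0.986).

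The remaining 3 genes were under the filter of 1 CPM in tumors and were not tested. Xcr1 was at 3.75 CPM (200 reads) in the tumor of mouse 725 and at 0 in the other 3. Cd209a was at 1.79 CPM in the tumor of control 706 and at 0 in the other 3. Each rested on 1 library, so no fold is given. Itgae was at 0 and 0.791 CPM in the cKO tumors and at 0.673 and 1.23 CPM in the controls.

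Of the 6 mice, 4 gave both a sort and a tumor, which allows the level in the sort to be set beside that of the tumor it came from. The tables were normalized separately, so these ratios are a description. Adgre1 and Csf1r, the receptor of the macrophage growth factor CSF1, were higher in the sort in all 4 mice, with median log2 ratios of 4.25 and 4.43. Among the 7 genes only Cadm1 was higher in the sort in all 4 mice, with log2 ratios of 1.33, 1.35, 2.23 and 1.07 in mice 706, 720, 725 and 746; 32.5% of the 16221 genes compared were higher in all 4. Its median ratio was 1.34, or 0.74 when CPM was rescaled to protein-coding genes. The 8 epithelial genes had a median of 1.20 (0.60 rescaled), and 5 of them were higher in all 4 mice. They went both ways, from -0.96 for Elf5 to 4.54 for Cldn4. The 11 macrophage genes had a median of 4.25 (3.80 rescaled) and ranged from 1.56 to 5.24.

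Clec9a was higher in the sort than in the tumor in both cKO mice and in neither control. Its log2 ratio was 1.63 in mouse 725 and 1.73 in mouse 746, but -1.38 in control 720, whose tumor held 4.16 CPM and its sort 0.979 CPM; control 706 had no read in either. The log2 ratio of Xcr1 was 2.41 and 2.28 in controls 706 and 720, whose tumors were at 0, -0.94 in mouse 725 and 1.14 in mouse 746. The signs of Clec9a and Xcr1 were thus opposite in mice 720 and 725 and alike in mouse 746. These splits rest on 2 mice a group and on the sorts described above, and were not tested.

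The other 4 genes showed no common direction. Cd209a had log2 ratios of -1.48, 2.84, 1.79 and 0.07 in mice 706, 720, 725 and 746, and Clec10a had 0.18, 1.25, -0.14 and 1.07. Zbtb46 was lower in the sort in 3 of the 4 mice (-3.34, -0.66 and -1.30 in mice 706, 720 and 725, against 0.48 in mouse 746), as the endothelial gene Pecam1 was (median -1.0). Itgae was higher in the sort in none of the 4 (median -0.79), like Cd3e (median -1.61). The median over the 7 genes was 0.81, against 0.36 over all genes compared, and on the protein-coding scale 0.65 against -0.05.

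**Figure D3:**
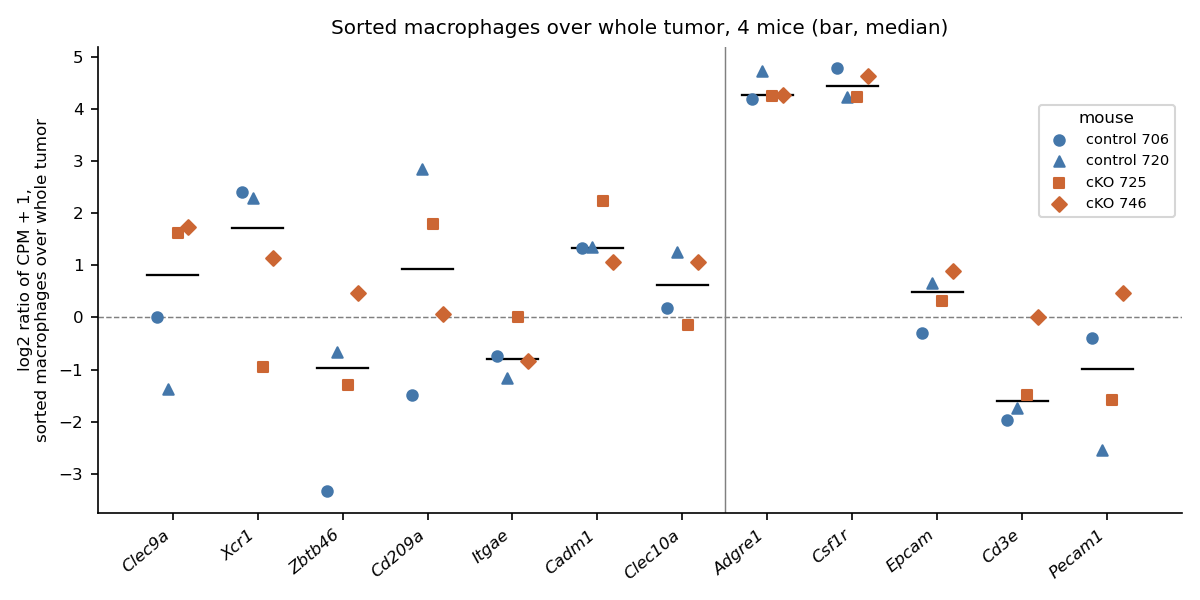
Log2 ratio of CPM + 1 in sorted macrophages over that in the whole tumor of the same mouse (vertical axis), for the 7 genes in both tables and, right of the line, for 5 marker genes of macrophages, epithelium, T cells and endothelium; each symbol is 1 of 4 mice and bars are medians. Adgre1 and Csf1r lie above 4 in every mouse, Cadm1 lies between 1.07 and 2.23, and Clec9a and Xcr1 spread to both sides of 0.

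The wider programs of dendritic cells, in lists of 61 genes in all, were set beside these markers. In the sorts 49 of the 61 averaged 1 CPM or more, and 37 of those 49 had a difference above 0, with a median of 0.29. Over all 16304 genes 54.7% were above 0, with a median of 0.05. Most lists of other cells lay mainly above 0 too. Macrophage genes had 10 of 11 (median 0.27), epithelial 6 of 8 (0.26), endothelial 6 of 6 (0.58) and fibroblast 4 of 6 (0.37). Monocyte genes had 4 of 7 and neutrophil genes 1 of 3. Without control 775 the macrophage count was 1 of 11. Without mouse 867 the endothelial count was 1 of 6 and the fibroblast count 0 of 6. Of all genes in the sorts 0% passed the limma threshold (428 had an unadjusted p under 0.05), and nothing is read from this about the 10 genes. Clec9a, Haao and Serpinb6b were higher in every cKO sort than in every control and Ly6d was lower, that is 3 and 1 of 49, beside the 3.77% and 3.45% over all genes.

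The 12 measured cDC1 genes were divided, 7 above 0 and 5 below, with a median of 0.10, which was -0.03 without control 775 or without mouse 867, 0.34 without control 706 and 0.24 without control 720. Besides the described genes, the list was led by the transcriptional regulator Id2 (mean 171 CPM), Rab7b, an endosomal GTPase (86.7 CPM), the receptor for double-stranded RNA Tlr3 (67.8 CPM) and Wdfy4, needed for cross-presentation (67.2 CPM). Id2 and Tlr3 were lower in the sort than in the tumor in all 4 mice compared, and Rab7b and Wdfy4 were higher. Irf8, the factor that directs cDC1 development and is also used by macrophages, was at 60.6, 53.4 and 57.5 CPM in mice 725, 746 and 867 and at 77.0, 75.4 and 21.4 CPM in controls 706, 720 and 775. Its cKO values fell inside the control range. Wdfy4, at 55.2, 96.9 and 76.3 CPM against 66.3, 78.8 and 29.7 CPM, overlapped too.

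Of the 9 measured cDC2 genes 8 lay above 0, with a median of 0.46. Without mouse 867 it was 5 of 9 with a median of 0.10, and without mouse 746 the median was 1.26. Klf4 (mean 219 CPM), Notch2 (216.5 CPM) and Sirpa (177 CPM) led this list, and all 3 are also made by macrophages or other cells. Irf4, a factor of cDC2 and of monocyte-derived cells, was at 12.5, 13.7 and 69.3 CPM in mice 725, 746 and 867 and at 4.45, 8.23 and 17.4 CPM in controls 706, 720 and 775. Mouse 867 was the highest and control 775 lay above mice 725 and 746. The list of genes shared by conventional dendritic cells had 4 of 7 above 0 (median 0.04). Its median was -0.30 without control 775 and -0.30 without mouse 867 (3 of 7 each), and ranged from 0.12 to 0.29 with any other library left out (up to 6 of 7, without control 720 or mouse 725). It was led by Kit (248 CPM), which mast cells, progenitors and mammary epithelium also express, the integrin gene Itgax (213 CPM), Dpp4 (20.5 CPM) and Bcl11a (6.92 CPM).

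The genes of mature, migrating dendritic cells, the group of Ccr7, mostly lay above 0 in the sorts, as macrophage genes did (10 of 11, median 0.27). Of its 14 measured genes 13 lay above 0, with a median of 0.82; the exception was the chemokine Ccl22 at -0.09. Without mouse 867 the median was 0.26 and 11 of 14 were above 0, and with any other library left out it was 0.64 to 1.03. Cd83 (mean 334 CPM), Tmem123 (209 CPM), the cytokine signalling inhibitor Socs2 (76.9 CPM) and the NF-kB subunit Relb (18.0 CPM) led the list. Their differences were 0.28, 0.17, 0.03 and 0.51, all under the list median of 0.82. The genes above that median were weakly expressed, with means of 1.91 to 6.08 CPM over the 6 sorts. Ccl22, below 0, was weak too (5.66 CPM). Cd83, a maturation marker that activated macrophages also express, was at 437, 353 and 308 CPM in mice 725, 746 and 867 and at 344, 334 and 230 CPM in controls 706, 720 and 775, and the groups overlapped.

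Fscn1, an actin bundling protein of mature dendritic cells, was at 8.36, 8.35 and 26.4 CPM in the cKO sorts and at 5.0, 9.84 and 5.74 CPM in the controls, so mouse 867 alone lay above control 720. Plasmacytoid dendritic cell genes had 5 of 7 above 0 (median 0.21), but 3 of 7 without control 775 (median -0.11), mouse 725 (-0.09) or mouse 746 (-0.23), and a median of 0.50 without mouse 867. The list was led by Tcf4 (179 CPM), Ly6d (139 CPM), Irf7 (42.0 CPM) and Runx2 (37.6 CPM). In whole tumors Tcf4 and Runx2 averaged 167 and 33.4 CPM, and Ly6d and Irf7 18.8 and 18.0 CPM. Of the same list Cox6a2, Pacsin1 and Spib, all under the filter with means of 0.331, 0.656 and 0.306 CPM, were at 0 in every control sort. Cox6a2 was also at 0 in mice 725 and 746, Spib in mouse 746 and Pacsin1 in mouse 867. In tumors Cox6a2 and Pacsin1 went the other way, with cKO means of 0 and control means of 1.32 and 0.746 CPM. How many of all genes were at 0 in every control was not counted. Of the ligands and partners of these receptors, 2 averaged 1 CPM or more in the sorts: Cdh1, the epithelial cadherin that binds CD103 (639 CPM), and Flt3l, the ligand of FLT3 (4.12 CPM). Their median was -0.05.

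**Figure D4:**
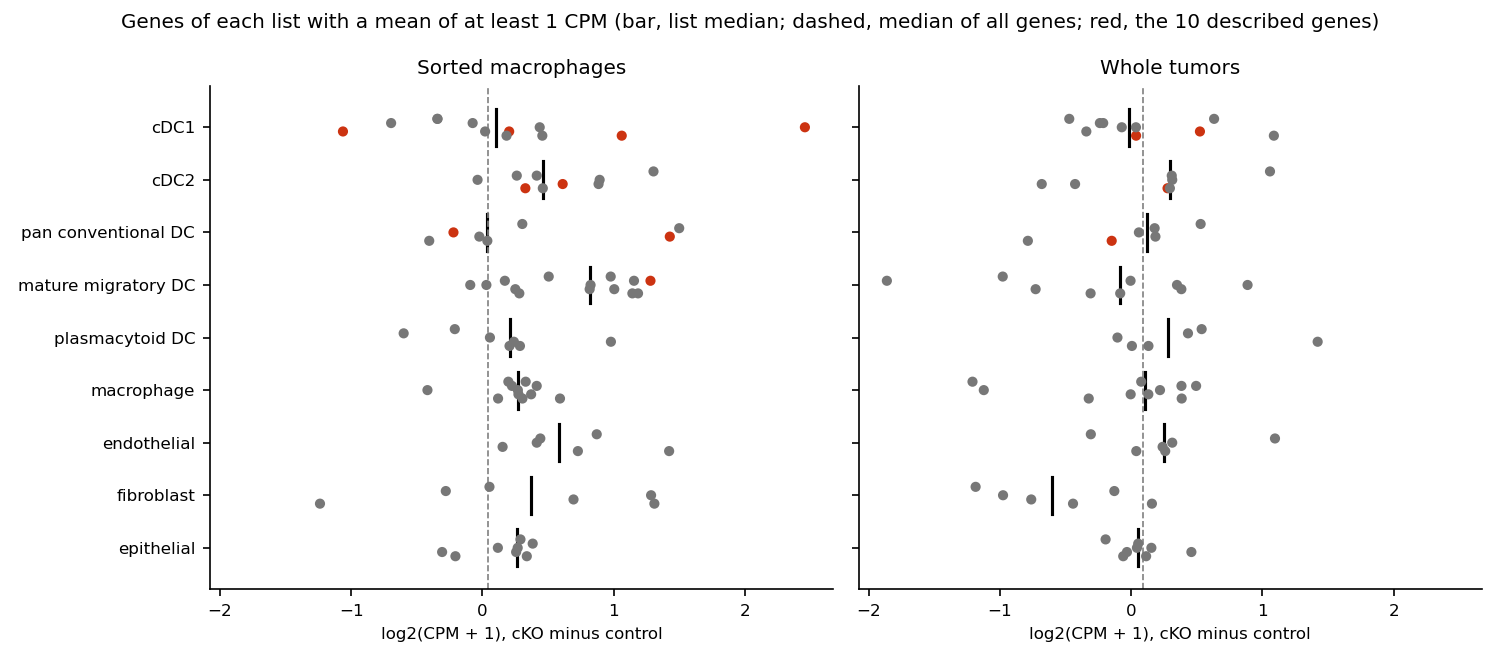
Difference between genotypes (horizontal axis, log2(CPM + 1), cKO minus control) for each gene averaging 1 CPM or more in lists of dendritic cell types and of other cells, in sorted macrophages and whole tumors; red points are the described genes, short bars list medians and the dashed line the median of all genes tested. The mature migratory list has a median of 0.82 in the sorts (0.26 without mouse 867) and -0.08 in the tumors (0.12 without control 706), and Clec9a is the red point farthest right.

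In whole tumors the same lists gave 38 measured genes, 22 of them above 0, with a median of 0.05 against 0.09 over all genes. The mature migratory list had 3 of 9 above 0 (median -0.08), cDC1 5 of 10 (median -0.02), cDC2 5 of 7 (median 0.30), the shared list 4 of 6 (median 0.12) and the plasmacytoid list 5 of 6 (median 0.28). With single libraries left out these medians moved. The mature migratory median was 0.12 without control 706, 0.07 without control 720 and 0.07 without mouse 725 (6, 5 and 6 of 9 above 0) and -0.08 without mouse 746. The cDC1 median ranged from -0.28 (without control 706) to 0.04 (without control 720), cDC2 had 2 of 7 above 0 (median -0.03) without mouse 725 and a median of 0.65 without mouse 746, and the shared list ranged from -0.26 (without mouse 746) to 0.35 (without mouse 725). The plasmacytoid median stayed above 0, at 0.40 to 0.50. No gene of any list passed the limma threshold in tumors. Both cKO tumors were above both controls for 7 of the 38 genes and below for 3, beside 21.2% and 14.3% over all genes.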

How the data were processed

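Total RNA from whole mammary tumors and from sorted tumor macrophages was sequenced after blocking of ribosomal RNA, per the labels' protocols. STAR 2.7.8a, Partek and GRCm38 (mm10) are named in the submitters' processing notes. The deposited tables hold log2 values: 2 to the power of each, minus 1, summed to 1e+06 in all 10 libraries, so they were read as log2(CPM + 1); the deposited files state no formula. The read worth was found from the steps between low values. Within 0.1 read, 82.5% to 89.5% of low values were whole, under the 95% needed, so no count test was run. Gene positions in the tables matched GENCODE vM21 starts for 2.63% and 2.72% of genes, so the positions printed come from GENCODE and RefSeq. Overlaps between genes were found from the deposited positions.

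The 2 tables were fitted separately, using limma 3.58.1 (R 4.3.3, intensity trend, genes averaging 1 CPM or more, Benjamini-Hochberg adjustment over all of them, threshold 0.05, two-sided), after a test on simulated data. Each library is 1 mouse. Alternatives were pseudocounts of 0.1 and 5 CPM, other filters, TMM-like and median-ratio scaling (computed directly), no trend, a protein-coding scale for the ratios, and each library left out; leaving out libraries for the lists was added after seeing the data. The members and lists were chosen with earlier results of these data known. Besides the 10 genes, up to 4 genes per dendritic cell list were named by highest mean CPM in the sorts. Marker genes of other cells were named too. Irf8, Fscn1, Ccr2, Ccl22, Cox6a2, Pacsin1 and Spib values, and the list genes whose groups did not overlap, were chosen after their values were seen. For Clec9a and Flt3 the 5 genes with the most similar pattern were to be named; 1 of them is not reported here.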

Additional observations from a re-analysis of the deposited data

How the results depend on the processing

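The count of genes past the limma threshold in the sorts was 0 in full and under every other scaling, filter and pseudocount, and ranged from 0 to 3 with 1 library left out: 1 without control 706, 3 without control 775 and 1 without mouse 867. In tumors it was 0 throughout. In the sorts 5 of the 10 genes (Flt3, Cd209a, Itgae, Cadm1 and Clec10a) changed sign with a library left out, and Clec9a, Xcr1, Batf3, Zbtb46 and Ccr7 kept theirs. For Clec9a the sign could not turn, since every cKO sort lay above every control. Clec9a was at 1.22 and 3.91 with pseudocounts of 5 and 0.1 CPM. In tumors Cadm1 turned to -0.022 with TMM-like factors and -0.045 with median-ratio factors. With 1 library left out, which leaves a lone tumor assumed to vary like the others, Clec9a ranged from -0.66 to 1.71, Zbtb46 from -0.90 to 0.60, Clec10a from -0.57 to 1.13 and Cadm1 from -0.26 to 0.34. Without control 706 Cd209a, and without mouse 725 Xcr1, was at 0 in every tumor and gave no value. Median ratios of sort to tumor changed sign for none of the 7 genes in the settings run, but that of Clec9a was 0 without mouse 725 and without mouse 746, which left 4 of 7 above 0 in place of 5. No paired analysis was possible because the labels say that tumors were size-matched but not which with which, and the genotypes compared share no mouse number. Of genes that averaged 1 to 2 CPM over the other sorts, 25.4% to 56.4% had under 3 reads in the sort left out, the level of Xcr1 and Flt3.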

Other observations

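Among 10066 genes averaging 5 CPM or more, those whose log2 values followed Clec9a most closely over the 6 sorts included E2f5 (r = 0.99), Tcp11l2 (r = 0.97), Cpq (r = 0.96) and Mgrn1 (r = 0.95), and 26 genes reached r = 0.9. For Flt3 they were Rad54l2 (r = 0.99), Rbm19 (r = 0.99), Igfals (r = 0.99), Kmt2b (r = 0.98) and Dpp4 (r = 0.98), and 119 genes reached r = 0.9. Besides Clec9a and Flt3 themselves, Dpp4 is the only gene named here that belongs to the dendritic cell lists. These are descriptions over 6 libraries that share their processing, and no p is given.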
